A study of Homo sapiens with 12 samples.

Results

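The intermediate filament genes were read from 62 of the 15650 probes with a single gene name. The platform symbol of these probes named a keratin (keratin-associated proteins left out), a neurofilament subunit, INA, PRPH, DES, GFAP, NES or a lamin. They stood for 58 of 13881 genes, each read from its brightest probe. Of these, 48 were keratins: 4 of simple epithelia, 20 of stratified epithelia, 23 of hair and root sheath, and KRT222. The other members were 6 neural filament genes, DES of muscle and 3 nuclear lamins. KRT8, KRT18, KRT6C, KRT17, KRT26, KRT28, KRT82 and NEFL are named by no probe with a single gene symbol and were not analysed here.

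The 12 arrays came from cells labelled HepG2, a line from a human hepatocellular carcinoma, in 4 groups of 3. One group was mock-treated control, and the others received 25 µM of an agent: the liquorice saponin glycyrrhizin, the milk thistle extract silymarin, or the bile acid ursodeoxycholic acid. All groups shared the same line and the same serum-supplemented medium, and the treatment time is not given in the sources used here. Since the labels do not say whether a group's arrays stem from different cultures, the p-values reflect array-to-array spread, possibly technical.

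Intermediate filaments are ropes of coiled-coil proteins that give cells and nuclei mechanical strength. Keratins assemble only as pairs of one acidic type I and one basic type II chain, and each epithelium has characteristic pairs. Hepatocytes use KRT8 with KRT18, cholangiocytes add KRT7 and KRT19, the basal epidermis uses KRT5 with KRT14, and its upper layers use KRT1 or KRT2 with KRT10. Type III and type IV proteins form the filaments of muscle, glia and neurons, and the lamins line the inner nuclear membrane.

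All values are log2 of the deposited intensity, where the median gene lay at 6.70. Array medians lay between 85.8 and 86.6 in linear intensity, and across probes arrays correlated with a median r of 0.934 within a group and 0.933 between groups. The label was checked against markers: 10 of 13 hepatocyte markers were measured, 7 of them above the median gene. AFP lay at 6.89, TTR at 7.77 and APOB at 8.89, but TF at 6.40, FGB at 6.20 and AHSG at 6.19. ALB is named by no probe with a single gene symbol. The hepatocyte markers had a median of 6.79 (6.19 to 8.89), the fibroblast and stellate cell markers 6.59 (6.03 to 15.53, the last VIM), and the neuron and neuroblast markers 6.93 (3.28 for ELAVL4 to 12.49 for TH). The other lists had medians of 6.69 (keratinocyte), 7.14 (cholangiocyte), 7.38 (muscle), 7.79 (endothelial) and 9.92 (leukocyte, 3 of 5 measured). The hepatocyte list did not stand out, so the markers do not settle the label. No marker of the 8 cell type lists passed the test in a comparison of an agent with control. The summed intensity of the 7 neuron and neuroblast markers ran from 7963 to 8976 in control, from 9615 to 11760 with glycyrrhizin, from 6768 to 8309 with silymarin and from 7559 to 12935 with ursodeoxycholic acid. That of the 7 of 8 cholangiocyte markers measured, a list that holds KRT7 and KRT19, ran from 863 to 1151 in control, from 743 to 813 with glycyrrhizin, from 864 to 910 with silymarin and from 768 to 930 with ursodeoxycholic acid. Of the 8 lists, only these had glycyrrhizin sums wholly apart from those of control. In every other list the glycyrrhizin and control sums overlapped. The sums are of linear intensity, so the brightest markers weigh most, for the neuron and neuroblast list TH at 12.49 and STMN2 at 11.08. The part of these cell types in the results was not tested. A probe's intensity depends on its sequence as well as on its transcript, so levels of different genes do not rank their transcripts. In bulk RNA, fewer cells of a type and less RNA per cell cannot be told apart.

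None of the 58 filament genes passed the test in any comparison (limma, Benjamini-Hochberg adjusted over all 13881 genes, threshold 0.05). This held for each agent against control, for the mean of the 3 agents against control, for the 3 pairs of agents and for a test of any difference among the 4 groups. Over all genes, 0% passed for each agent against control, for the mean of the 3 agents and for glycyrrhizin against ursodeoxycholic acid, 0.0504% for glycyrrhizin against silymarin, 0.0288% for silymarin against ursodeoxycholic acid and 0.0216% for any difference. By the unadjusted limma p under 0.05, 3 members differed for glycyrrhizin against control beside 5.37% of all genes, 2 for silymarin beside 4.89%, and 4 for ursodeoxycholic acid beside 5.29%. For the mean of the 3 agents there were 6 members, beside 4.26% of all genes. Between agents, by the same unadjusted limma p, 2 members differed for glycyrrhizin against silymarin (beside 9.31%), 3 for silymarin against ursodeoxycholic acid (beside 8.04%) and 1 for glycyrrhizin against ursodeoxycholic acid (beside 4.68%). For any difference there were 3, KRT5, NEFM and KRT10, beside 6.71%. As shares, 5.17%, 3.45% and 6.90% of the members differed for glycyrrhizin, silymarin and ursodeoxycholic acid against control, near the background. For the mean of the 3 agents the share was 10.3%, and its 6 members (KRT5, KRT10, KRT20, KRT40, KRT72 and NEFM) all lay under that p for a single agent too.

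The filament genes covered most of the intensity range. All 4 simple epithelial keratins were dim, between 3.99 and 5.48 and below the median gene. The stratified keratins ran from 3.63 to 10.07, with 10 of 20 above the median gene, and the hair and root sheath keratins from 4.75 to 10.44, with 15 of 23 above. All 3 lamins were above it. The spread between arrays was a little wider than for genes at large: the residual SD had a median of 0.50 over the members and 0.43 over all genes.

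**Figure D1:**
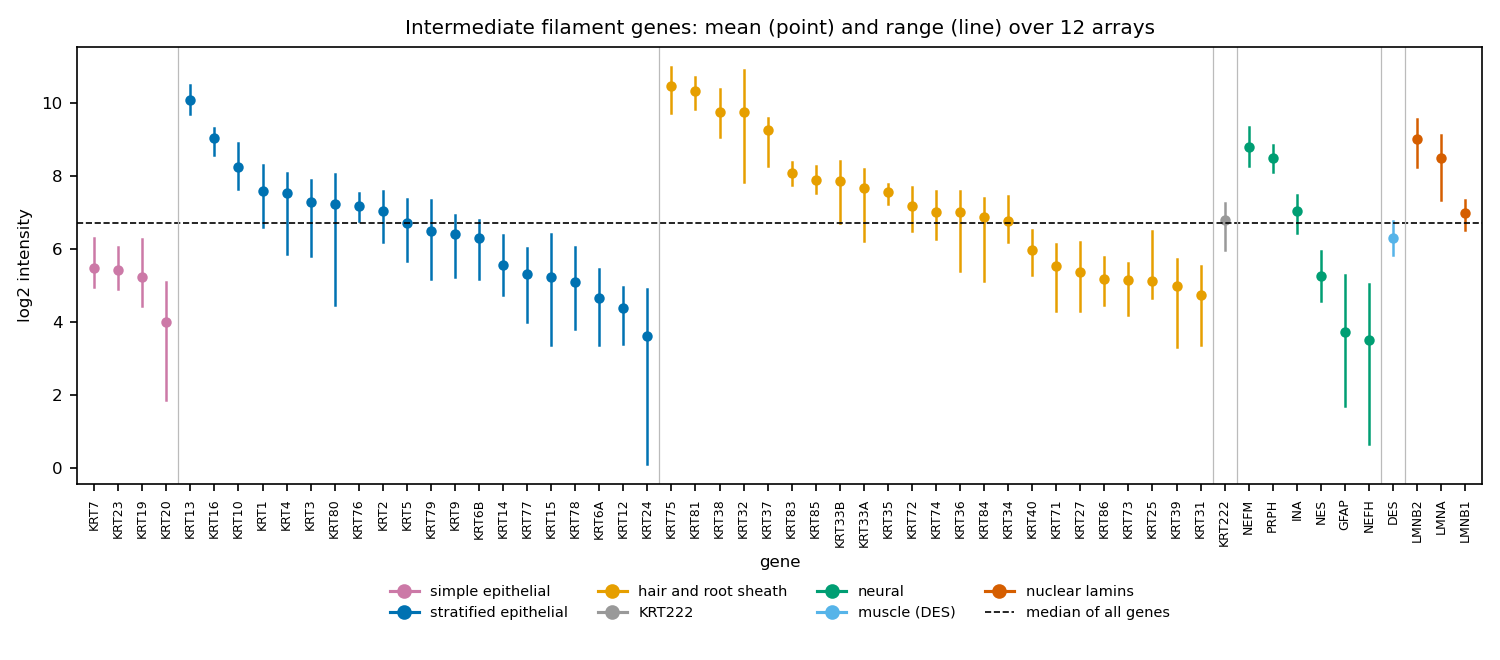
Mean log2 intensity (points) and range over the 12 arrays (lines) of the 58 filament genes, by type, with the median of all genes dashed at 6.70. The 4 simple keratins lie below the dashed line, and KRT75, KRT81 and KRT13 are the members with the highest means.

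Among the simple epithelial keratins, KRT7, a type II chain of ducts and glands, measured 5.32, 5.77 and 5.10 in control, 5.28, 6.29 and 5.51 with glycyrrhizin, 6.26, 4.96 and 5.49 with silymarin, and 5.45, 5.21 and 5.14 with ursodeoxycholic acid. KRT19, a type I chain of bile ducts, measured 6.27, 4.95 and 4.46 in control, 4.57, 5.02 and 5.07 with glycyrrhizin, 5.60, 6.14 and 5.24 with silymarin, and 4.45, 5.32 and 5.71 with ursodeoxycholic acid. Each agent's values overlapped those of control for both genes. For KRT19 the glycyrrhizin arrays lay below all silymarin arrays, by 0.77 log2 units on average (SE 0.47, adjusted p = 0.695 by limma). KRT23, a type I keratin of digestive epithelia, stayed between 4.90 and 6.05 and overlapped likewise.

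KRT20, a type I keratin of the intestinal epithelium, had the largest difference of an agent from control among the simple keratins. It measured 3.72, 1.87 and 3.74 in control, 4.57, 3.62 and 3.49 with glycyrrhizin, 4.72, 3.40 and 4.42 with silymarin, and 4.52, 5.09 and 4.76 with ursodeoxycholic acid. All ursodeoxycholic acid arrays lay above all control arrays, and 1 control array was far below the rest. The difference was 1.68 log2 units (SE 0.53, 95% interval 0.52 to 2.85, adjusted p = 0.821 by limma). Without control replicate 2 it was 1.06. The probe was among the dimmest of the members, and with 50 intensity units added to every value before the log the difference was 0.38.

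Of the stratified keratins, KRT5, the type II chain of basal keratinocytes, carried the smallest p of the family. It measured 6.71, 7.16 and 7.37 in control, 7.21, 7.19 and 6.49 with glycyrrhizin, 6.12, 5.67 and 6.12 with silymarin, and 6.63, 7.02 and 6.85 with ursodeoxycholic acid. The 3 silymarin arrays were the lowest of the 12, a pattern shared by 1.07% of all genes and by 1 of 58 members (1.72%). Silymarin differed from control by -1.11 log2 units (SE 0.27, 95% interval -1.71 to -0.51), a 2.16-fold lower intensity, with an adjusted p of 0.825 by limma. Glycyrrhizin exceeded silymarin by 0.99 (adjusted p = 0.244, limma) and silymarin lay 0.87 below ursodeoxycholic acid (adjusted p = 0.503, limma). The basal partner KRT14, at a mean of 5.56, differed from control by -0.13, -0.07 and 0.24 with glycyrrhizin, silymarin and ursodeoxycholic acid, and KRT15, another basal type I chain, by 0.17, 0.51 and 0.98.

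KRT10, the type I chain of suprabasal epidermis, was highest with glycyrrhizin on average. It measured 7.81, 7.97 and 7.80 in control, 8.49, 8.76 and 8.89 with glycyrrhizin, 8.49, 8.15 and 8.19 with silymarin, and 8.16, 7.63 and 8.65 with ursodeoxycholic acid. The glycyrrhizin and the silymarin arrays each lay above all control arrays, and those of ursodeoxycholic acid overlapped control. Glycyrrhizin exceeded control by 0.85 log2 units (SE 0.26, 95% interval 0.28 to 1.43, adjusted p = 0.746 by limma). The suprabasal type II partners differed from control with glycyrrhizin by 0.38 for KRT1 and 0.39 for KRT2, and with silymarin by 0.06 and -0.17.

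KRT13 and KRT16 were the brightest stratified keratins. KRT13, a type I chain of moist mucosal epithelia, measured 9.73, 9.93 and 10.05 in control, 10.20, 10.02 and 9.69 with glycyrrhizin, 10.09, 9.85 and 10.18 with silymarin, and 10.35, 10.26 and 10.48 with ursodeoxycholic acid. The 3 ursodeoxycholic acid arrays were the highest of the 12, as for 0.62% of all genes and 1 of 58 members (1.72%). The difference from control was 0.46 log2 units (SE 0.21, adjusted p = 0.925 by limma). KRT16, induced in wounded epidermis, stayed between 8.57 and 9.31, and its intervals against control kept every agent within 2-fold. KRT78 measured 4.33, 4.61 and 4.96 in control and 5.80, 5.10 and 6.06 with silymarin, without overlap and 1.02 apart (SE 0.46, adjusted p = 0.977 by limma). KRT9, the type I keratin of palm and sole, had a mean of 6.87 with glycyrrhizin and 6.02 with ursodeoxycholic acid (difference 0.85, SE 0.39, adjusted p = 0.882 by limma), and the groups overlapped.

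**Figure D2:**
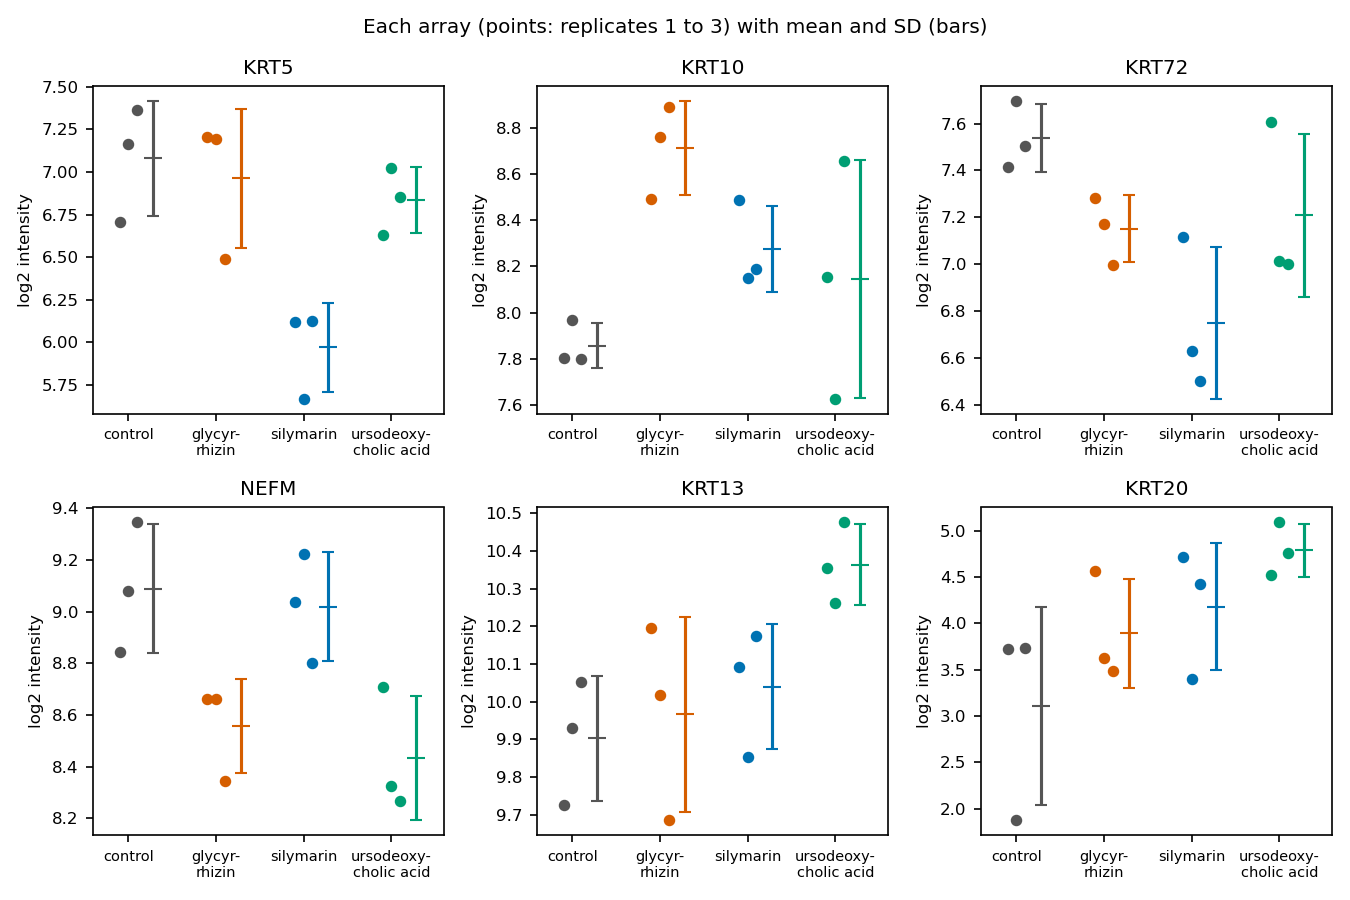
Log2 intensity of KRT5, KRT10, KRT72, NEFM, KRT13 and KRT20 on each array (points), with the mean and SD of each group of 3 arrays (bars); the vertical scales differ. KRT5 is lowest on the 3 silymarin arrays, and NEFM is lower on the 6 glycyrrhizin and ursodeoxycholic acid arrays than on the other 6.

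The hair and root sheath keratins build the hair shaft and the sheaths around it. The brightest were KRT75 of the companion layer, between 9.72 and 10.98 over the 12 arrays, KRT81 of the hair cortex, between 9.81 and 10.69, and KRT38, a type I hair keratin, between 9.06 and 10.36. For these 3 genes each agent's arrays overlapped control. KRT72, a type II keratin of the inner root sheath, measured 7.42, 7.70 and 7.50 in control, 7.28, 7.17 and 7.0 with glycyrrhizin, 7.12, 6.63 and 6.50 with silymarin, and 7.61, 7.01 and 7.0 with ursodeoxycholic acid. Its silymarin and glycyrrhizin arrays lay below control. Silymarin differed from control by -0.79 log2 units (SE 0.24, 95% interval -1.32 to -0.25, adjusted p = 0.927 by limma).

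KRT40, a type I keratin of the hair cuticle, measured 5.86, 5.48 and 5.29 in control, 5.82, 6.25 and 6.51 with glycyrrhizin, 6.09, 5.62 and 6.06 with silymarin, and 6.31, 6.07 and 6.45 with ursodeoxycholic acid. Only the ursodeoxycholic acid arrays lay wholly above control. The differences from control were 0.65 with glycyrrhizin (SE 0.25, adjusted p = 0.835 by limma) and 0.73 with ursodeoxycholic acid (SE 0.25, adjusted p = 0.886 by limma). Its dimmer probe gave 0.43 and -0.02 for the same differences, so the probes disagreed for ursodeoxycholic acid. They disagreed for silymarin too, with 0.38 on the brighter probe and -0.34 on the dimmer. KRT37, KRT222 and LMNB1 also had a second probe. Over the 12 arrays the probes of a gene correlated at r = 0.58 for KRT40, 0.48 for KRT222, 0.07 for KRT37 and 0.05 for LMNB1. With ursodeoxycholic acid KRT37 differed from control by -0.09 on its brighter probe and by -1.02 on the other. With silymarin KRT222 differed by 0.12 on its brighter probe and by -0.63 on the other.

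KRT27, an inner root sheath keratin, measured 5.66, 5.81 and 6.07 with glycyrrhizin and 4.95, 4.31 and 5.37 with silymarin, without overlap. The difference was 0.97 log2 units (SE 0.34, adjusted p = 0.384 by limma). KRT34, a hair cortex keratin, measured 6.54, 7.25 and 7.45 with silymarin and 6.19, 6.41 and 6.87 with ursodeoxycholic acid, and the groups overlapped (difference 0.59, SE 0.27, adjusted p = 0.619 by limma). The other hair and root sheath keratins differed from control by between -0.89 (KRT32 with ursodeoxycholic acid) and 0.77 (KRT84 with glycyrrhizin). Close relatives such as KRT81, KRT83 and KRT86, KRT33A and KRT33B, or KRT6A and KRT6B are nearly identical in sequence, and whether their probes tell them apart was not tested.

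Among the neural filament genes, NEFM, the medium neurofilament subunit, was lower than control on average with glycyrrhizin and ursodeoxycholic acid. It measured 8.84, 9.08 and 9.34 in control, 8.66, 8.66 and 8.35 with glycyrrhizin, 9.04, 9.22 and 8.80 with silymarin, and 8.71, 8.33 and 8.27 with ursodeoxycholic acid. The 6 glycyrrhizin and ursodeoxycholic acid arrays all lay below the other 6, as for 0.641% of all genes and 1 of 58 members (1.72%). This split was looked for after the values of NEFM were seen. Against control, glycyrrhizin differed by -0.53 log2 units (SE 0.22, adjusted p = 0.868 by limma), ursodeoxycholic acid by -0.65 (SE 0.22, adjusted p = 0.873 by limma) and silymarin by -0.07 (SE 0.22, adjusted p = 0.992 by limma). These differences share the control arrays. The difference between silymarin and ursodeoxycholic acid, which does not use them, was 0.59 (SE 0.22, adjusted p = 0.580 by limma).

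PRPH, the type III filament of peripheral neurons, measured 8.24, 8.63 and 8.47 in control, 8.84, 8.75 and 8.79 with glycyrrhizin, 8.27, 8.60 and 8.37 with silymarin, and 8.55, 8.35 and 8.10 with ursodeoxycholic acid. The 3 glycyrrhizin arrays were the highest of the 12, as for 1.15% of all genes and 1 of 58 members (1.72%). No member other than KRT5, KRT13 and PRPH had the 3 arrays of a group beyond the other 9. Glycyrrhizin exceeded ursodeoxycholic acid by 0.46 log2 units (SE 0.20, adjusted p = 0.882 by limma) and control by 0.34 (SE 0.20, adjusted p = 0.948 by limma). NEFM and PRPH, both neuronal, thus had glycyrrhizin means on opposite sides of control.

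INA, the internexin of developing neurons, lay between 6.44 and 7.48 and overlapped in all groups. NES, the filament of neural progenitors, measured 5.85, 5.77 and 5.18 with glycyrrhizin and 4.59, 5.22 and 4.78 with silymarin, which overlapped (difference 0.73, SE 0.33, adjusted p = 0.537 by limma). GFAP of astrocytes and NEFH, the heavy neurofilament subunit, were dim, with single arrays at 1.70 and 0.66, and their differences from control had standard errors of 0.76 and 0.94. DES, the filament of muscle cells, lay between 5.83 and 6.76, with differences from control of 0.12, -0.29 and -0.03 for glycyrrhizin, silymarin and ursodeoxycholic acid, all 3 intervals within 2-fold. SYNM, a filament protein of muscle that the array lists under an older symbol, was added after the data were seen. It averaged 4.85 in control, 4.39 with glycyrrhizin, 4.70 with silymarin and 4.56 with ursodeoxycholic acid, and passed no test.

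The nuclear lamins were measured in every group. LMNA, which encodes lamins A and C, measured 8.98, 8.54 and 8.40 in control, 8.85, 8.78 and 8.29 with glycyrrhizin, 7.60, 8.52 and 8.60 with silymarin, and 7.33, 9.12 and 8.75 with ursodeoxycholic acid. One silymarin and 1 ursodeoxycholic acid array were low, and each agent's arrays overlapped control. LMNB2, a B-type lamin, measured 9.56, 9.06 and 9.12 in control and between 8.25 and 9.29 with the agents, with differences from control of -0.39, -0.41 and -0.12. LMNB1, the B-type lamin of dividing cells, stayed between 6.53 and 7.35, and its 3 glycyrrhizin arrays lay below its 3 ursodeoxycholic acid arrays by 0.40 on average (SE 0.24, adjusted p = 0.882 by limma). The brighter probe of LMNB1 gave -0.22, 0.16 and 0.18 against control with glycyrrhizin, silymarin and ursodeoxycholic acid, and its other probe -0.19, 0.44 and 0.12. On the brighter probe of LMNB1 every interval against control lay within 2-fold, and for LMNA and LMNB2 some reached past it.

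**Figure D3:**
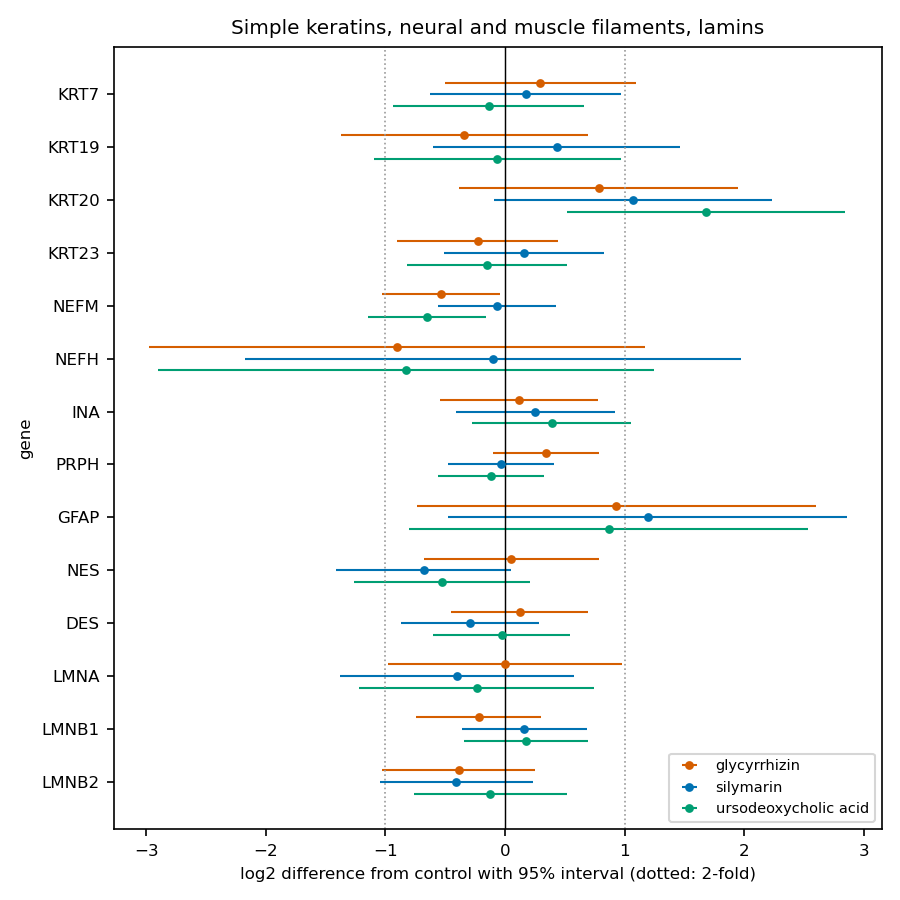
Log2 difference from control (points) with its 95% interval (lines) for the simple keratins, neural and muscle filament genes and lamins, with 2-fold marked by dotted lines. The interval of KRT20 with ursodeoxycholic acid runs from 0.52 to 2.85, and those of NEFM with glycyrrhizin and ursodeoxycholic acid lie below 0.

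The types were then compared by counts, without a test. With glycyrrhizin, 38 of 58 members lay above control (median difference 0.08), beside 52.5% of all genes. With silymarin 30 of 58 did (median 0.00143), beside 52.3%, and with ursodeoxycholic acid 25 of 58 (median -0.08), beside 52.3%. The hair and root sheath keratins lay above control in 18 of 23 cases with glycyrrhizin (median 0.16), 12 with silymarin and 14 with ursodeoxycholic acid. They lay above silymarin in 20 of 23 cases with glycyrrhizin (median 0.27), beside 51.3% of all genes, and in 16 of 23 without silymarin replicate 2 (median 0.08). The stratified keratins lay above control in 13, 10 and 7 of 20 cases with glycyrrhizin, silymarin and ursodeoxycholic acid, the simple keratins in 2, 4 and 1 of 4, the neural genes in 4, 2 and 2 of 6, and the lamins in 0, 1 and 1 of 3. Single arrays moved the counts of large and small types. The stratified keratins above control with silymarin numbered 7 of 20 without control replicate 3 and 13 of 20 without silymarin replicate 2. With glycyrrhizin they numbered between 11 and 15 of 20. The hair and root sheath keratins above control with ursodeoxycholic acid numbered 10 of 23 without control replicate 3 or ursodeoxycholic acid replicate 2. Without silymarin replicate 1 or 2, the simple keratins above control with silymarin numbered 3 of 4. With glycyrrhizin they numbered 1 of 4 without glycyrrhizin replicate 2 and 3 of 4 without control replicate 1. With ursodeoxycholic acid they numbered 2 of 4 without control replicate 1 or 2 or ursodeoxycholic acid replicate 1. The neural genes numbered 4 of 6 with silymarin without control replicate 2 or silymarin replicate 3, and 4 of 6 with ursodeoxycholic acid without its replicate 3. With glycyrrhizin they numbered 3 of 6 without control replicate 1 or 2 or glycyrrhizin replicate 1, 2 or 3. The lamins numbered 1 of 3 with glycyrrhizin without control replicate 1 or glycyrrhizin replicate 3, and 0 of 3 with silymarin without control replicate 2. With ursodeoxycholic acid they numbered 2 of 3 without control replicate 1 or ursodeoxycholic acid replicate 1, and 0 of 3 without control replicate 2. The glycyrrhizin median of all 58 members ran from 0.06 without glycyrrhizin replicate 1 to 0.20 without control replicate 1. In these 2 settings 33 and 34 of 58 members lay above control. For the hair and root sheath keratins the median reached 0.29 without control replicate 1, but the count above control fell to 15 of 23. It was also 15 without control replicate 3 or glycyrrhizin replicate 3.

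**Figure D4:**
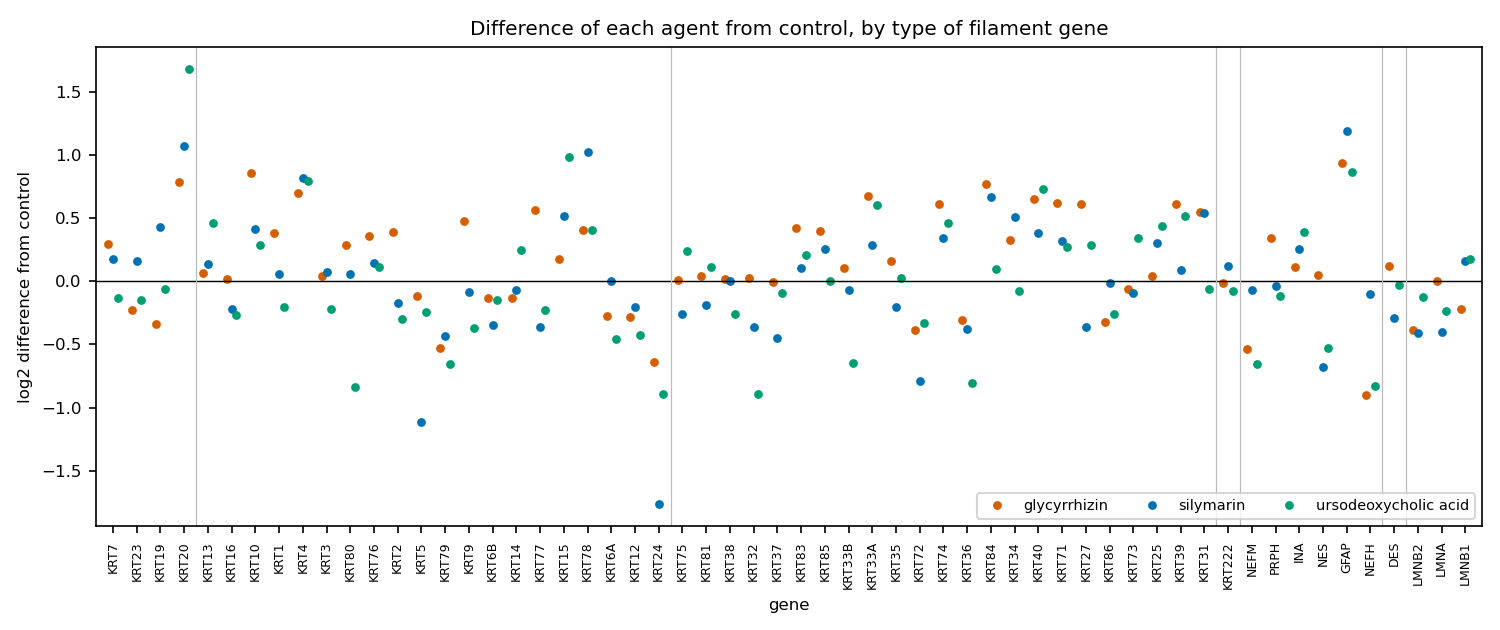
Log2 difference of each agent from control for the 58 filament genes, ordered by type and mean intensity within a type. Most differences lie between -1 and 1, and KRT20, KRT24, KRT5, KRT78 and GFAP hold the values outside that range.

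Groups of arrays that did not overlap were counted next. For glycyrrhizin against control, 12 of 58 members had separate groups, beside 12.7% of all genes. The 8 higher ones, beside 6.98%, were KRT10, KRT27, KRT34, KRT74, KRT76, KRT83, KRT84 and PRPH. The 4 lower ones, beside 5.76%, were KRT36, KRT72, KRT79 and NEFM. For silymarin against control there were 6 members, beside 10.8%, with KRT5, KRT72 and KRT79 lower (beside 4.62%) and KRT10, KRT78 and KRT84 higher (beside 6.21%). For ursodeoxycholic acid there were 6, beside 9.5%, with KRT13, KRT20, KRT40 and KRT73 higher (beside 5.3%) and KRT36 and NEFM lower (beside 4.21%). No member had all 9 treated arrays on one side of control, beside 0.792% of all genes, although 18 members had all 3 agents' means above control, beside 23.4%, and 13 below, beside 18.3%.

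Between agents, glycyrrhizin and silymarin had separate groups for 13 of 58 members, beside 18.2% of all genes, with 11 higher with glycyrrhizin (beside 9.07%) and 2 lower (beside 9.16%). The 11 were KRT2, KRT5, KRT9, KRT10, KRT16, KRT27, KRT33A, KRT35, KRT77, KRT83 and PRPH, and the 2 were KRT19 and NEFM. Silymarin and ursodeoxycholic acid were separate for 3 members, beside 14.7%: NEFM was higher with silymarin (beside 6.84%), and KRT5 and KRT13 were lower (beside 7.82%). Glycyrrhizin and ursodeoxycholic acid were separate for 7, beside 11.6%: KRT16, KRT76, KRT77, KRT80 and PRPH were higher with glycyrrhizin (beside 5.76%), and KRT13 and LMNB1 lower (beside 5.81%). The precision bounded only part of the family. The 95% interval against control lay within 2-fold for 26 of 58 members with glycyrrhizin, beside 47.7% of all genes, for 24 with silymarin, beside 48.3%, and for 22 with ursodeoxycholic acid, beside 47%. For the rest a 2-fold difference was not excluded at 3 arrays a group.

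Single low arrays widened several of these intervals. In 10 of 58 members, 1 array lay at least 1 log2 unit below the other 11, beside 10.1% of all genes, and in 0 members above them, beside 2.05%. Ursodeoxycholic acid replicate 3 held 4 of the 10: KRT80 at 4.47 against a next lowest value of 6.97, KRT32 at 7.83 against 9.31, KRT84 at 5.14 against 6.32, and NEFH at 0.66 against 2.12. Replicate 1 of that group held KRT3 at 5.81 and KRT36 at 5.40, silymarin replicate 1 held KRT24 at 0.12, and the control arrays held KRT4 at 5.86, KRT20 at 1.87 and GFAP at 1.70. The ursodeoxycholic acid means of KRT80, KRT32 and KRT36, 0.84, 0.89 and 0.80 below control, include such an array. So does the silymarin mean of KRT24, 1.77 below control and the lowest difference of any member from control.

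Partner chains were set against each other over the 12 arrays. Both chains were measured in 9 of 15 listed pairs, 8 of keratins and LMNA with LMNB1. KRT4 and KRT13, partners in mucosal epithelia, had r = 0.70 (permutation p = 0.0051, 100000 resamples, adjusted over the 9 pairs p = 0.0459) and rho = 0.70 (permutation p = 0.0137, adjusted p = 0.10). The 12 arrays are 4 groups of 3, and after each group's mean was taken off, r was 0.85. Without the 2 arrays farthest from the median of KRT4, r was 0.52. Leaving out 1 array at a time gave r from 0.69 to 0.77, with an adjusted permutation p above 0.05 in 10 of 12 cases. KRT2 and KRT10 had r = 0.56 (permutation p = 0.0610, adjusted p = 0.275) and rho = 0.66 (permutation p = 0.0222, adjusted p = 0.10). KRT5 and KRT14 had r = -0.03 and rho = -0.02, KRT7 and KRT19 had r = -0.12 and rho = -0.19, LMNA and LMNB1 had r = 0.01 and rho = 0.04, and the smallest adjusted permutation p of the other pairs was 0.444, for rho = -0.45 of KRT5 and KRT15.

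**Figure D5:**
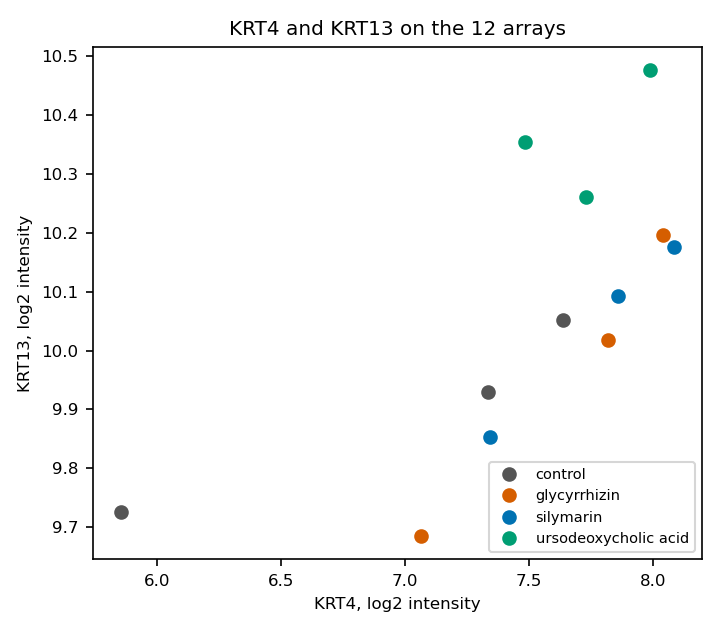
Log2 intensity of KRT4 and KRT13 on each of the 12 arrays, coloured by group. The array at the lower left with KRT4 at 5.86 is control replicate 1, and the 3 ursodeoxycholic acid arrays are the highest for KRT13.

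The start regions of the genes were read from a set of promoters (GRCh38.p14) to show what the keratin genes share in sequence. The set held 36 of 58 members, and a gene missing from it may still have a known start. It held 19 of 23 hair and root sheath, 10 of 20 stratified and 1 of 4 simple keratins. The share over all keratins thus rests mostly on hair keratins. The 250 bases before the start were searched on both strands for TATAAA, the core of the TATA box, and GGGCGG, the core of the GC box; these motifs do not overlap in letters. TATAAA stood in 17 of 30 keratin windows (56.7%), beside 11.1% of all 27305 promoters in the set and 7.78% of those of the genes measured here. It stood in 13 of 19 hair and root sheath keratins and 4 of 10 stratified keratins. GGGCGG stood in 4 of 30 keratin windows (13.3%), beside 42.3% of all promoters and 60.2% of those of the genes measured here, and in 2 of 3 lamin windows. In 15 members a sense TATAAA began between 20 and 40 bases before the start.

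The last 60 bases before the start are given for genes the results turn on. They are also given for KRT76, a stratified keratin, and for hair keratins of the TATAAA group. TATAAA and GGGCGG (or its complement CCGCCC) are in capitals. KRT10, KRT76, KRT33A, KRT38 and PRPH hold TATAAA here, and KRT5, KRT20 and LMNA do not. The positions are chr17:40822615-40822674 (minus strand) for KRT10, chr12:52777346-52777405 (minus) for KRT76, chr17:41350829-41350888 (minus) for KRT33A, chr17:41440984-41441043 (minus) for KRT38, chr12:49295087-49295146 (plus) for PRPH, chr12:52520395-52520454 (minus) for KRT5, chr17:40885243-40885302 (minus) for KRT20 and chr1:156082513-156082572 (plus) for LMNA.
KRT10: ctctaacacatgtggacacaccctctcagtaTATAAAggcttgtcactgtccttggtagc
KRT76: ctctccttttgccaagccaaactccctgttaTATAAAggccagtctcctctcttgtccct
KRT33A: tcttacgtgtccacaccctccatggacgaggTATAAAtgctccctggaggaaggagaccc
KRT38: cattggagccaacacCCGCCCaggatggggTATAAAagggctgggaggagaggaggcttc
PRPH: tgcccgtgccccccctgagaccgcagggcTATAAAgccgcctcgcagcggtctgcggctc
KRT5: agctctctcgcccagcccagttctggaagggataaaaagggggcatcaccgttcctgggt
KRT20: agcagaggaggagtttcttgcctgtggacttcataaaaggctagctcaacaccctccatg
LMNA: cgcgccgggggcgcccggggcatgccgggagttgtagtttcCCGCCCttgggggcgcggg
A match is a description of the letters and not a site, and a window without them says nothing of any factor.

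Genes that work with intermediate filaments passed no test either. Of the desmosome and plakin linkers, which anchor keratins at junctions, 15 of 18 were measured and 0 were called in any comparison. PKP4, a plakophilin of cell junctions, had the smallest p among them, 0.92 log2 units above control with glycyrrhizin (SE 0.25, adjusted p = 0.674 by limma), followed by DSC1, a desmosomal cadherin, at 0.72 (adjusted p = 0.809, limma). DSP, the plakin that anchors keratins at desmosomes, lay below control with glycyrrhizin (difference -0.83, SE 0.31, adjusted p = 0.809 by limma). Of the nuclear envelope partners of lamins, 14 of 17 were measured and 0 called. SYNE2, a nesprin that ties the nucleus to the cytoskeleton, averaged 11.32 ± 0.18 (SD, n = 3) in control, 9.85 ± 0.23 with glycyrrhizin, 10.53 ± 0.33 with silymarin and 9.73 ± 0.33 with ursodeoxycholic acid. It differed from control by -1.46 with glycyrrhizin (SE 0.25, adjusted p = 0.226 by limma) and -1.58 with ursodeoxycholic acid (SE 0.25, adjusted p = 0.155 by limma), a larger difference than that of any lamin. FNTA, a subunit of the enzyme that farnesylates lamins, differed from control by -0.84 with glycyrrhizin (adjusted p = 0.498, limma). With ursodeoxycholic acid FNTA differed by -0.69 (adjusted p = 0.731, limma) and with silymarin by 0.12 (adjusted p = 0.982, limma). Of the cornified envelope genes 9 of 11 were measured, led by SPRR2A and LOR, and of the keratin regulators 11 of 11, led by KLF4, at -0.64 with glycyrrhizin and 0.53 with silymarin against control, and KEAP1. No gene of either list was called in any comparison.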

How the data were processed

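Total RNA was labelled with Cy5 and hybridised to one-colour oligonucleotide arrays, per the labels. The authors deposited 1 linear intensity per probe and array (27561 probes, values from 1 to 65221), and the submitters' processing notes name limma without the steps it ran. At a given rank the values spread over the arrays by a median of 1.22%, so they had been brought to a common distribution, and no detection call came with them. Probes were named from the platform annotation, with older symbols updated. The 11911 probes without a name or with more than 1 gene symbol were kept out of the comparisons of genes. After taking log2, limma 3.58.1 in R 4.3.3 was run on all arrays (1 mean per group, all probes, 8 residual and 2.8 prior degrees of freedom). The brightest probe stood for a gene, and two-sided p-values were adjusted over 13881 genes. Arrays have no depth in counts; 3 per group set the precision.

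Named genes were the simple, neural, muscle and lamin members, the 3 brightest stratified and hair keratins and those with an unadjusted p under 0.05 for an agent, the 3 members with the smallest p in each comparison, and the 2 genes with the smallest p in each partner list. Members listed by their separate groups or single low arrays, KRT14, KRT15, KRT1, KRT2, DSP and the marker genes given with their levels were chosen after their values were seen. The members, lists and types were chosen with earlier results of these data known. Alternatives covered normalization, offsets, dim probes, joining of probes, variance trend, array weights, separate fits, the replicate block and leaving out each array.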

Additional observations from a re-analysis of the deposited data

How the results depend on the processing

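No member was called in any of the 8 results under any alternative. The lowest adjusted p of a member (limma) over all settings was 0.0771, for KRT5 in glycyrrhizin against silymarin. All 454 recomputed differences of the 22 named results kept their direction. These results were picked for their small p on the same arrays, so a kept direction is no independent support. For KRT5 with silymarin against control the difference ran from -1.30 to -0.72, for NEFM with ursodeoxycholic acid from -0.79 to -0.53, and for KRT20 with ursodeoxycholic acid from 0.38 (offset of 50) to 2.05 (array weights). The offsets shrink differences of dim probes by construction. The fit with the replicate number as a block called 0 members. The deviations of same-numbered arrays from their group means had a median r of 0.02 (-0.19 to 0.15), beside -0.01 (-0.23 to 0.27) for the other pairs. No pairing by number was seen, but whether same-numbered arrays share a culture cannot be told from this. The reading of each probe on its own and the addition of SYNM by its current symbol were chosen after seeing the data, and neither gave a call.

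Leaving out 1 array at a time, the r of KRT4 with KRT13 ran from 0.69 to 0.77, and its adjusted permutation p reached 0.0940. Correlations near 0 crossed 0: from -0.285 to 0.0738 for r of KRT7 with KRT19, -0.190 to 0.205 for r of KRT5 with KRT14, -0.0226 to 0.365 for r of KRT1 with KRT10, -0.172 to 0.0863 for r of KRT6A with KRT16, and -0.0687 to 0.154 for r of LMNA with LMNB1. With the mean of probes, the r of LMNA with LMNB1 was -0.0619. The cause was not tested.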
